A study of Mus musculus with 4 samples.

Results

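The ligands and receptors of TGF-beta and BMP signalling described here are 10 genes, chosen by name among the 27998 genes of the count tables. They are the ligands Tgfb1, Tgfb2, Tgfb3, Bmp4 and Bmp6, the TGF-beta receptors Tgfbr1, Tgfbr2 and Tgfbr3, and the BMP receptors Bmpr1a and Bmpr2. All 10 were found in the tables of all 4 libraries, and their transcripts were followed in each cell lineage of the right ventricle (RV) and in each library, to see which lineages carried transcripts of the ligands (sources) and which of the receptors (receivers).

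The nuclei came from frozen RVs of wild-type C57/BL6J mice at postnatal day 21 (P21). In the right ventricular volume overload (RVVO) group a fistula between the abdominal aorta and the inferior vena cava (ACF) had been made at P7, and the sham group had the same operation without the puncture. There were 2 libraries in each group, named sham 1, sham 2, RVVO 1 and RVVO 2, the order of every list of 4 values below. The sources do not say whether a library was 1 mouse or a pool, so the p-values measure the spread between libraries, which may be technical.

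TGF-beta ligands are secreted in a latent form held by the matrix, and act after release on a complex of the type II receptor Tgfbr2 and the type I receptor Tgfbr1, which phosphorylates Smad2 and Smad3. Tgfbr3 (betaglycan) is a co-receptor that presents TGF-beta, Tgfb2 above all, to the complex. BMPs act on the type II receptor Bmpr2 with type I receptors such as Bmpr1a (ALK3), and the signal passes through Smad1, Smad5 and Smad9 to targets such as the Id genes. In the developing heart these ligands are known for their part in the transformation of endocardium into valve mesenchyme, and in the adult heart TGF-beta is known for activating fibroblasts.

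In the annotation of GRCm38, Tgfb1 lies at chr7:25687002-25705077 on the plus strand, Tgfb2 at chr1:186622792-186705989 on the minus strand and Tgfb3 at chr12:86056745-86079041 on the minus strand. Bmp4 lies at chr14:46383520-46390669 on the minus strand and Bmp6 at chr13:38345107-38500302 on the plus strand. Tgfbr1 lies at chr4:47353222-47414931 on the plus strand, Tgfbr2 at chr9:116084293-116175360 on the minus strand and Tgfbr3 at chr5:107106570-107289629 on the minus strand. Bmpr1a lies at chr14:34410734-34503341 on the minus strand and Bmpr2 at chr1:59763400-59879014 on the plus strand. Tgfb3 overlaps Ttll5, and Bmp6 overlaps Txndc5 and 4930579J19Rik, on the opposite strand, and the sources do not say whether counting used the strand, so reads of these pairs may not have been told apart.

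Tgfb2, Tgfbr2 and Bmp4 were higher in endocardial than in other endothelial nuclei, and the 250 bases before their start sites lie outside the exons of the annotation. These 3 promoter windows, from RefSeq with the build GRCm38.p6, are shown because these genes had the widest such differences among those whose windows meet no exon. The difference of Bmp4 was not called without RVVO 2. Tgfbr1, with a narrower difference, has 2 windows outside exons, with 0 and 5 matches to GGAA, and they are not shown. They are at chr1:186705990-186706239 for Tgfb2, at chr9:116175364-116175613 for Tgfbr2 and at chr14:46390670-46390919 for Bmp4, each on the minus strand and written 5′ to 3′. Capitals mark GGAA, the core of ETS factor sites, and CACGTG, the E-box, on either strand.
Tgfb2: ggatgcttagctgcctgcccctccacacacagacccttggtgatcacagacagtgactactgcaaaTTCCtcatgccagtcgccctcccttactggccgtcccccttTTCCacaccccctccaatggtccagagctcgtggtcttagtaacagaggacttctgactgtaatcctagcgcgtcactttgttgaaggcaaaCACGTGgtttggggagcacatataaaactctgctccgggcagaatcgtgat
Tgfbr2: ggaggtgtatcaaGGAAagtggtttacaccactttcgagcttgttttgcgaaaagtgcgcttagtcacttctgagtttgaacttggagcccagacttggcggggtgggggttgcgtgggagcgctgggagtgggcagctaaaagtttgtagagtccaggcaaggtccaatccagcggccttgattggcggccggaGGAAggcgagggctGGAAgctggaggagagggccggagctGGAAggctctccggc
Bmp4: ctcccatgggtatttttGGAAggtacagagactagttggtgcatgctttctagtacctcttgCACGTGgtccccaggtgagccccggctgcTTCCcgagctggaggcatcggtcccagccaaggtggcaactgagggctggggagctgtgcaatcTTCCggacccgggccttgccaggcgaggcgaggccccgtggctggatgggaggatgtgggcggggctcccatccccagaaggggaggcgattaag
GGAA occurred 2 times in the window of Tgfb2, 4 times in that of Tgfbr2 and 3 times in that of Bmp4, and CACGTG occurred 1 time in those of Tgfb2 and Bmp4 and 0 times in that of Tgfbr2. A promoter was matched for 8 of the 10 genes, with 9 promoters in all, and 7 of the 9 had GGAA, which 30698 of all 32851 promoters (93.4%) had in windows of the same length. CACGTG was in 3 of the 9 windows (those of Tgfb2, Bmp4 and Bmp6) and in 1978 of all promoters (6.02%). These matches only describe the letters of the windows.

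The 4 libraries held 53090 barcodes, 8700 to 15568 each, with 51010039 to 64739206 UMIs (unique molecular identifiers, which count transcripts). UMIs per barcode had medians of 2311, 2262, 4705 and 3378, which were higher in both RVVO libraries. Any pair of libraries shared 28 to 70 barcodes. Xist, the RNA of the inactive X chromosome, was at 1475, 1486, 0.823 and 0.623 CPM (the UMIs of a gene scaled by all UMIs of the same nuclei), and Uty, on the Y chromosome, was at 0.101, 0.0259, 321.9 and 316.6 CPM. The sham libraries thus held female and the RVVO libraries male transcripts, and in these data sex cannot be told apart from RVVO.

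After filters on quality and doublets 43210 nuclei were left, and 31733 of them (73.4%) were given a lineage from their raw UMIs of marker genes, none of which is a ligand, a receptor or a gene of the wider pathway. There were 2591, 3032, 2641 and 4343 cardiomyocyte (CM) nuclei, 761, 1445, 905 and 1630 fibroblast nuclei and 229, 342, 207 and 427 macrophage nuclei. Endothelium was divided into endocardial nuclei (233, 195, 228 and 397), lymphatic nuclei (44, 40, 53 and 38) and other endothelial nuclei (3129, 3391, 1452 and 1487). Smooth muscle (46, 74, 11 and 27 nuclei) and lymphocytes (8, 20, 4 and 18 nuclei) were thinly filled. The endocardial markers, Npr3 and Nrg1 among them, made up 0.92% to 1.17% of UMIs in endocardial nuclei and 0.023% to 0.036% in other endothelial nuclei. This gap was set by the rule that divided the endothelium, which used the same markers. They made up 0.278% to 0.367% in epicardial and 0.112% to 0.169% in lymphatic nuclei. CM markers made up 3.94% to 4.501% of UMIs in CM nuclei, but also 0.222% to 1.06% in the other lineages, which therefore held some CM transcripts. Fibroblast markers made up 0.591% to 0.718% of UMIs in fibroblasts, but also 0.330% to 0.407% in epicardial and 0.348% to 0.483% in glial nuclei.

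The map of mean levels by lineage showed 5 leading lineages for the 10 genes. Fibroblasts led for Bmp4, Tgfbr1 and Tgfbr3, lymphatic nuclei for Tgfb1 and Tgfbr2, smooth muscle for Tgfb2 and Tgfb3, endocardial nuclei for Bmp6 and Bmpr2, and CMs for Bmpr1a. Each level below is the CPM of 1 gene in the summed nuclei of 1 lineage, and levels were compared between lineages and not between genes.

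**Figure D1:**
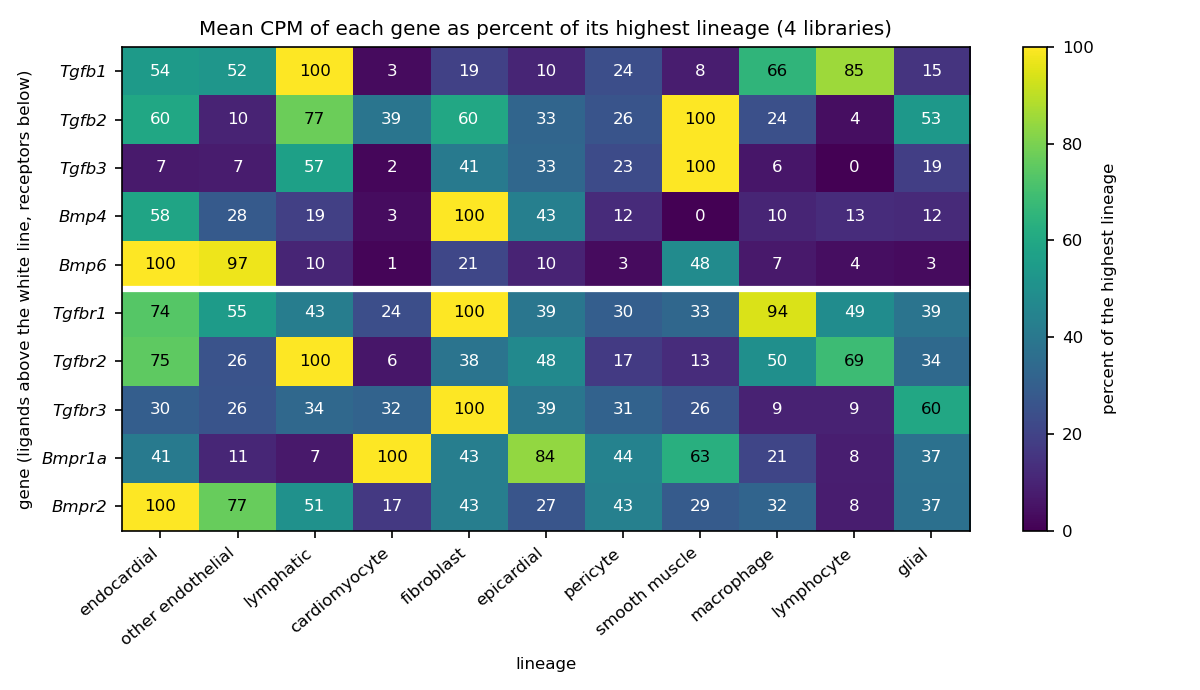
Mean CPM over the 4 libraries for each gene (rows, ligands above the white line) in each of 11 lineages (columns), as percent of the level in that gene's highest lineage. Bmp6 was high in both endocardial and other endothelial nuclei, and Bmpr1a was high in CM nuclei and low in lymphatic and other endothelial nuclei.

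Of the TGF-beta ligands, Tgfb1, the form best known from immune cells and vessels, had its highest mean level in lymphatic nuclei. There it was at 140.3, 164.6, 130.4 and 139.5 CPM (144 ± 14.7, SD, n = 4), from 100 UMIs in all. Lymphocyte nuclei had 153.7, 143.3, 0 and 194.1 CPM of Tgfb1. These values rested on 17 UMIs in all, with none in the 4 nuclei of RVVO 1, so their place in the order is uncertain. Macrophage nuclei followed with 85.4, 94.4, 93.9 and 102.8 CPM, and no library of theirs reached the lowest lymphatic value. Endocardial nuclei (77.5, 85.1, 53.7 and 95.9 CPM) and other endothelial nuclei (58.8, 77.5, 74.2 and 90.7 CPM) overlapped with macrophages and with each other. Fibroblasts had 27.8 ± 3.5 and CMs 3.95 ± 1.10 CPM (SD, n = 4), so that the level in CMs was the lowest of the 11 lineages.

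Tgfb2, a ligand with known roles in the endocardial cushions, had no single leading lineage. Smooth muscle nuclei had the highest mean, with 186.2, 166.3, 49.3 and 154.9 CPM from 62 UMIs, and the library of 11 nuclei, RVVO 1, was the low value. Lymphatic nuclei had 127.5, 134.7, 95.2 and 73.4 CPM. Fibroblasts had 82.4, 85.8, 78.3 and 87.5 CPM. Endocardial nuclei had 93.0, 93.1, 88.2 and 57.1 CPM, a range that took in that of the fibroblasts. CMs had 54.3 ± 4.4 CPM. In other endothelial nuclei it was at 12.6, 16.5, 11.5 and 15.8 CPM, below endocardial nuclei in every library.

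Tgfb3, the third TGF-beta, was also highest in smooth muscle nuclei (100.4 ± 41.0 CPM, SD, n = 4, from 41 UMIs). Lymphatic nuclei had 57.4, 59.9, 59.9 and 51.4 CPM and fibroblasts 44.2, 40.5, 42.0 and 38.0 CPM, with no overlap between these lineages. In endocardial nuclei Tgfb3 rested on 1, 3, 9 and 16 UMIs (7.1 ± 5.1 CPM), a level near that of other endothelial nuclei (7.5 CPM). CMs had 1.83 CPM, and lymphocyte nuclei had 0 UMIs.

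Of the BMP ligands, Bmp4 was highest in fibroblasts, with 55.1, 37.2, 51.0 and 44.6 CPM. Endocardial nuclei had 19.7, 16.1, 29.4 and 44.7 CPM, from 107 UMIs, so their highest library, RVVO 2, lay within the fibroblast range and the others below it. In other endothelial nuclei Bmp4 was at 12.3, 11.8, 14.96 and 14.4 CPM, below endocardial nuclei in all 4 libraries. CMs had 1.54 CPM, and smooth muscle nuclei 0 UMIs.

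Bmp6, a BMP that endothelium is known to secrete, among other things to set hepcidin in the liver, marked endothelium. It was at 852, 1152, 863 and 1101 CPM in endocardial nuclei (992 ± 157, SD, n = 4) and at 829, 1158, 1055 and 823 CPM in other endothelial nuclei (966 ± 167). The endocardial value was higher in 2 of 4 libraries, and the ranges overlapped almost wholly. Lymphatic nuclei, in contrast, had 103 ± 58.8 CPM. Smooth muscle nuclei had 363, 349.8, 937 and 267.5 CPM, of which the high value, RVVO 1, was 38 UMIs in 11 nuclei. Fibroblasts had 240.3, 235, 211 and 161 CPM and CMs 14.1 ± 3.2 CPM.

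Of the TGF-beta receptors, the type I receptor Tgfbr1 was highest in fibroblasts and macrophages. Fibroblasts had 221, 236, 206 and 230.5 CPM and macrophages 160.2, 243, 247 and 194 CPM, with fibroblasts above macrophages in 2 of 4 libraries. Endocardial nuclei (190.2, 165, 149 and 153 CPM) lay above other endothelial nuclei (122 ± 15.8 CPM) in 4 of 4 libraries. CMs had 53.4 ± 12.0 CPM.

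The type II receptor Tgfbr2 was highest in lymphatic nuclei, with 427, 456.5, 444 and 514 CPM, above endocardial nuclei in 4 of 4 libraries. Endocardial nuclei had 300.1, 393, 250.3 and 437 CPM. Other endothelial nuclei had 114, 116, 112 and 128 CPM, and no endocardial or lymphatic library came near that range. Macrophages had 229 ± 19.8, fibroblasts 177 ± 22.9 and CMs 27.6 ± 2.9 CPM.

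The co-receptor Tgfbr3 was highest in fibroblasts. They had 780.1, 719.5, 846 and 742.5 CPM (772 ± 55.4, SD, n = 4), with no overlap with the next lineage, glial nuclei (464 ± 140). Glial nuclei also held fibroblast markers (0.348% to 0.483% of UMIs), and the part of fibroblast transcripts in their Tgfbr3 was not tested. CMs (247 ± 48.1 CPM), endocardial nuclei (232 CPM) and other endothelial nuclei (202 ± 17.6 CPM) had similar levels, and macrophages were low (73.2 ± 8.0 CPM).

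Of the BMP receptors, Bmpr2, the type II receptor mutated in heritable pulmonary hypertension, was highest in endocardial nuclei, with 741, 708, 798.5 and 742 CPM. Other endothelial nuclei had 509, 559, 570.5 and 652.5 CPM, without overlap with the endocardial values. Fibroblasts had 318, 324, 318 and 313 CPM. CMs had 116, 106, 146 and 134 CPM, so Bmpr2 was low in the lineage with the highest level of Bmpr1a. Lymphocyte nuclei had means of 58.7 CPM of Bmpr2 and 49.7 CPM of Bmpr1a. These rested on 8 and 9 UMIs in all, with 0 in RVVO 1 for both, and are uncertain.

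Bmpr1a, whose product is needed for growth of the ventricular wall in the embryo, was highest in CMs, with 569, 629.5, 623 and 597 CPM (605 ± 27.7, SD, n = 4). Epicardial nuclei had 494, 476, 630.0 and 429.6 CPM, below CMs in 3 of 4 libraries. Endocardial nuclei had 217, 265, 266.5 and 247 CPM and fibroblasts 258 ± 23.7 CPM. Other endothelial nuclei had 56.7, 75.3, 75.4 and 55.1 CPM and lymphatic nuclei 42.4 ± 34.5 CPM.

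**Figure D2:**
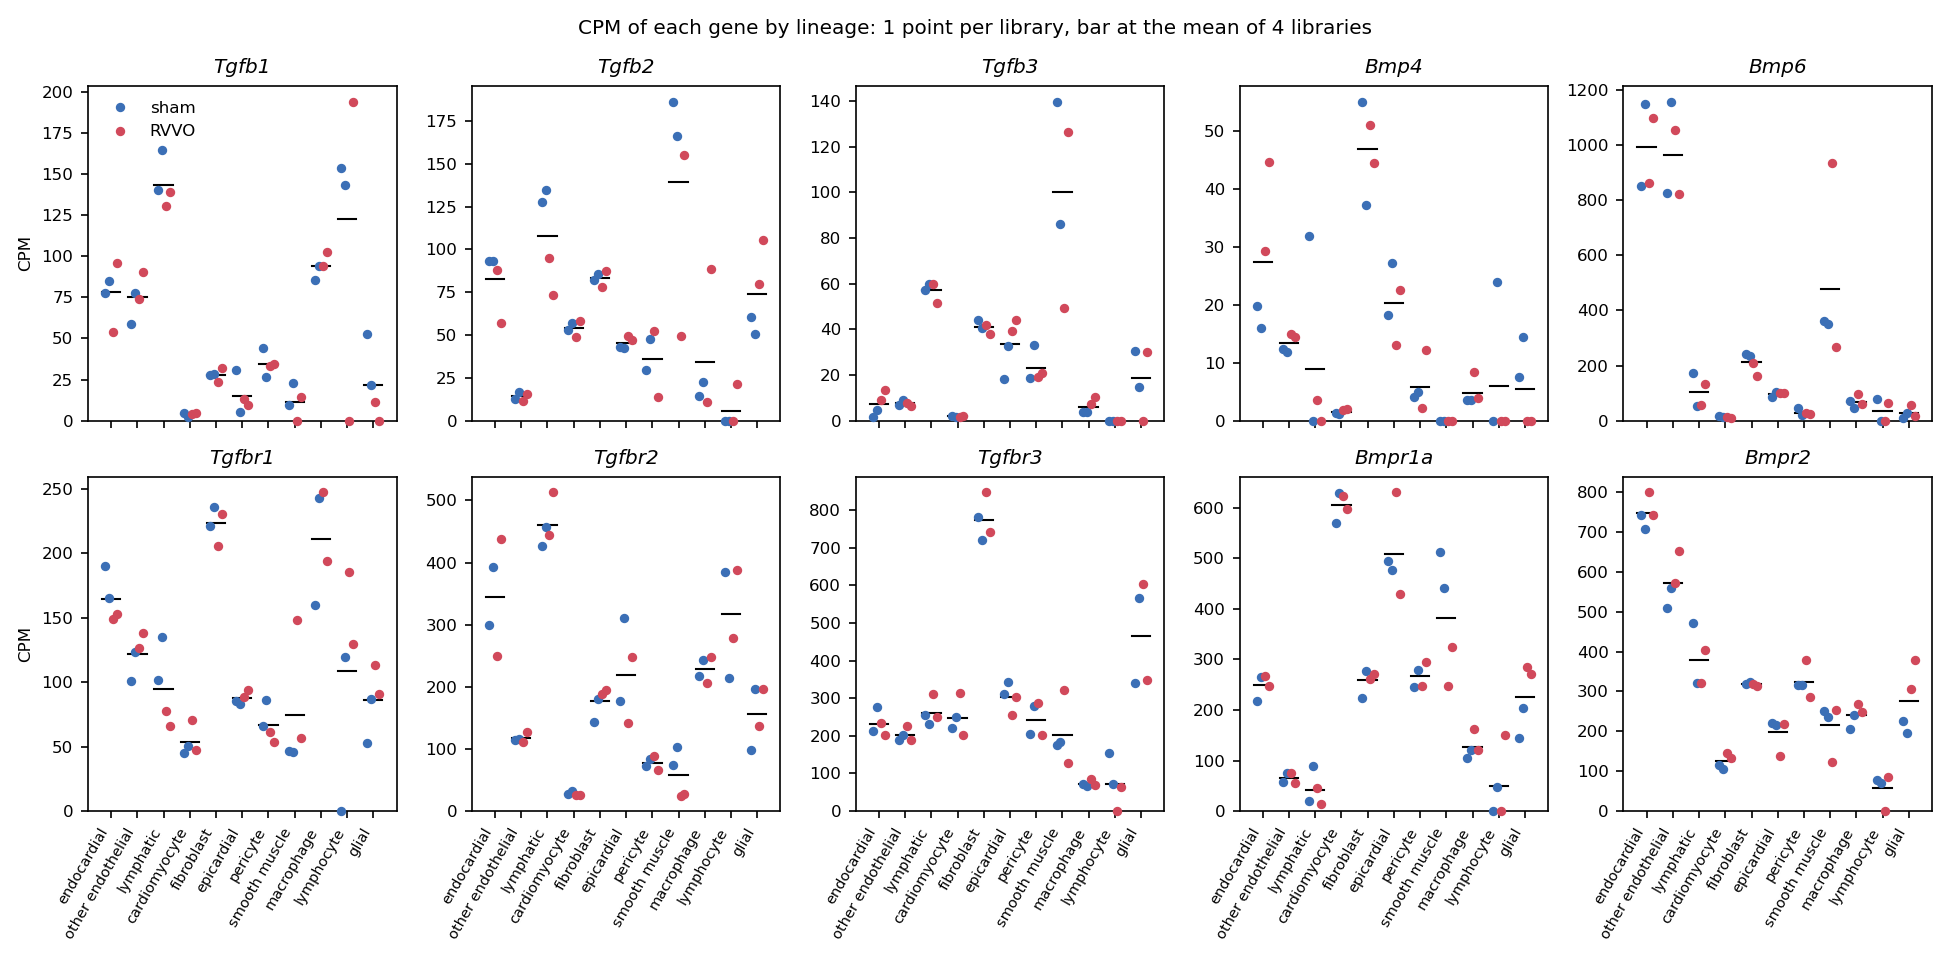
CPM of each of the 10 genes (panels) in 11 lineages (x axis), with 1 point per library (blue, sham, and red, RVVO) and a bar at the mean of 4 libraries, on a linear axis from 0. Endocardial points of Bmpr2, Tgfbr2, Tgfb2 and Bmpr1a lie above those of other endothelial nuclei, whereas those of Bmp6 are mixed.

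Because CM transcripts were found in all lineages, Bmpr1a was also counted against them. In CM nuclei there were 1.37 to 1.51 UMIs of Bmpr1a per 100 UMIs of the 10 CM markers. Other endothelial nuclei had 1.36 to 2.04, a range that took in the ratio of CMs, so their Bmpr1a cannot be told apart from CM transcripts in these nuclei. Lymphatic nuclei had 0.554 to 4.04. Endocardial nuclei had 6.93 to 10.8, fibroblasts 6.44 to 9.98 and epicardial nuclei 13.3 to 20.2, each above CMs in every library.

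**Figure D3:**
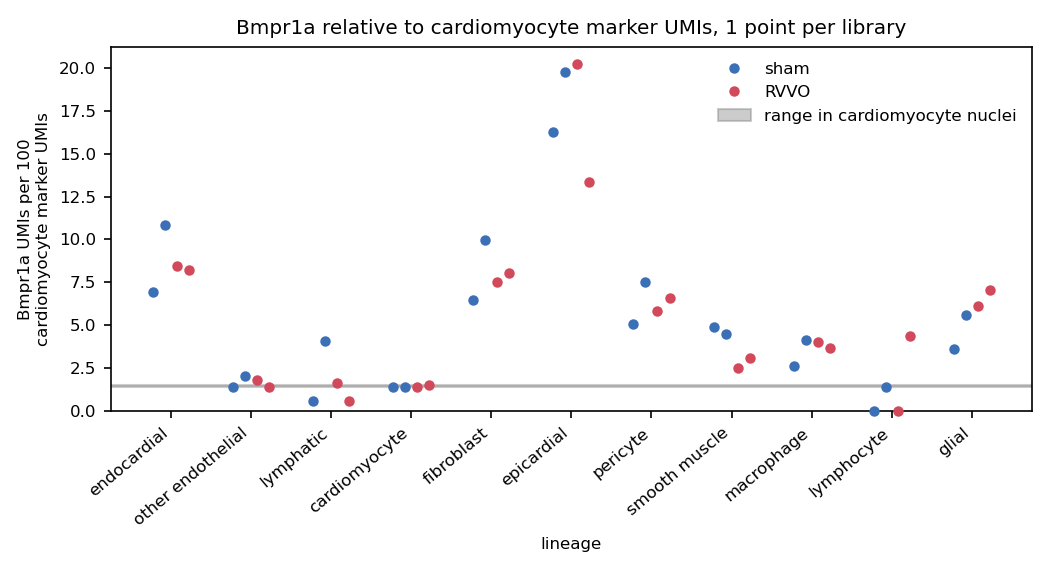
UMIs of Bmpr1a per 100 UMIs of the 10 CM markers (y axis, linear from 0) in each lineage (x axis), with 1 point per library (blue, sham, and red, RVVO) and a grey band at the range in CM nuclei. Other endothelial points lie at or near the band, and endocardial, fibroblast and epicardial points lie well above it.

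Each lineage was then tested against the mean log level of the other lineages (edgeR's quasi-likelihood test on sums per library and lineage with the library as a block, Benjamini-Hochberg adjusted p under 0.05 over 12028 genes). Of 110 pairs of gene and lineage, 46 were called higher and 25 lower. Endocardial nuclei had 8 of the 10 genes higher, where 20.1% of all genes were, and 0 lower, where 5.6% of all genes were. The 8 were Bmp6 (log2 difference 3.62), Bmp4 (2.51), Bmpr2 (1.72), Tgfbr2 (1.33), Tgfb1 (1.23), Tgfb2 (0.90), Tgfbr1 (0.79) and Bmpr1a (0.48). Over the 9 lineages with at least 20 nuclei in every library there were 8 higher (18.1%) and 1 lower (9.75%), Tgfb3 (-0.96). A gene with 0 UMIs in 1 lineage cannot be called lower in another in the fit over 11 lineages, and its differences there are raised. Counts over the 9 lineages are therefore given too. Such genes were Bmp4 and Tgfb3. Over the 9 lineages Bmp4 was higher by 1.71 in endocardial nuclei, 0.50 in other endothelial nuclei, 2.36 in fibroblasts and 1.27 in epicardial nuclei. Tgfb3 was higher by 2.08 in lymphatic nuclei, 1.54 in fibroblasts, 1.45 in epicardial nuclei and 0.76 in pericytes. Endocardial nuclei thus carried transcripts of ligands and of both kinds of receptor.

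Other endothelial nuclei had 5 genes higher (background 29%) and 3 lower (11.8%). Bmp6 (3.60), Bmp4 (1.34), Bmpr2 (1.33), Tgfb1 (1.23) and Tgfbr1 (0.36) were higher, and Tgfb2 (-1.85), Bmpr1a (-1.59) and Tgfbr2 (-0.32) were lower. The call for Tgfb2 was lost without RVVO 2, which held the only UMI of Tgfb2 in lymphocytes, and it was made over the 9 better filled lineages. There, other endothelial nuclei had 4 higher (27.2%) and 5 lower (21.7%), with Tgfbr3 (-0.40) and Tgfb3 (-1.02) lower too and Tgfbr1 no longer called higher. Lymphatic nuclei had 5 higher (14.7%) and 1 lower (8.43%). Tgfb3 (2.54), Tgfb1 (2.04), Tgfbr2 (1.63), Tgfb2 (1.16) and Bmpr2 (0.45) were higher there, and Bmpr1a was lower (-2.52). Over the 9 lineages lymphatic nuclei had 4 higher (13.8%) and 1 lower (11.5%), with Bmpr2 (0.15) no longer called.

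Fibroblasts had 8 higher (25.2%) and 1 lower (9.32%). Bmp4 (3.17), Tgfb3 (2.07), Tgfbr3 (1.93), Tgfbr1 (1.19), Bmp6 (1.04), Tgfb2 (0.83), Bmpr1a (0.45) and Bmpr2 (0.27) were higher, and Tgfb1 was lower (-0.49). Over the 9 lineages fibroblasts had 7 higher (22.5%) and 1 lower (17.7%), with Bmpr2 (-0.09) no longer called. Macrophages had 3 higher (26.1%) and 3 lower (11.1%). Tgfb1 (1.47), Tgfbr1 (1.10) and Tgfbr2 (0.60) were higher, and Tgfbr3 (-1.81), Bmp6 (-0.75) and Bmpr1a (-0.67) were lower. Over the 9 lineages macrophages had 3 higher (25.1%) and 6 lower (20.8%), with Tgfb3 (-1.36), Bmp4 (-1.29) and Bmpr2 (-0.50) lower too.

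CMs had 3 genes higher (39.7%) and 5 lower (22.4%). Bmpr1a (2.52), Tgfb2 (0.87) and Tgfbr3 (0.81) were higher, and Tgfb1 (-2.86), Bmp6 (-2.55), Tgfbr2 (-2.05), Bmpr2 (-0.50) and Tgfbr1 (-0.38) were lower. Over the 9 lineages Bmp4 (-2.38) and Tgfb3 (-2.75) were lower in CMs too, which made 3 higher (38.4%) and 7 lower (34.3%). CMs were thus called lower for 4 of the 5 ligands. By mean CPM, however, CMs were only at rank 6 of the lineages for Tgfb2 (54.26) and rank 5 for Tgfbr3 (246.9). Endocardial nuclei had a similar level of Tgfbr3 (231.8 CPM), but a log2 difference of only 0.10, which was not called. The test used TMM normalization and the CPM did not, so the differences in CMs cannot be read from the CPM.

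Epicardial nuclei had Bmp4 (2.10), Tgfb3 (1.97), Bmpr1a (1.58), Tgfbr2 (0.66) and Tgfbr3 (0.55) higher (5 genes, background 22.3%) and Tgfb1 (-1.98) and Bmpr2 (-0.37) lower (2 genes, 9.58%). Over the 9 lineages they had 4 higher (19.9%) and 3 lower (16.2%), with Tgfbr3 (0.22) no longer called and Tgfbr1 (-0.39) lower too. Smooth muscle nuclei had 4 higher (8.83%), Tgfb3 (3.58), Bmp6 (2.12), Tgfb2 (1.83) and Bmpr1a (1.21), and 2 lower (5.89%), Tgfbr2 (-1.24) and Tgfbr1 (-0.90). Pericytes had 3 higher (19.6%), Tgfb3 (1.29), Bmpr1a (0.58) and Bmpr2 (0.39), and 3 lower (8.21%), Bmp6 (-2.03), Tgfbr2 (-1.02) and Tgfbr1 (-0.63). Over the 9 lineages pericytes had 2 higher (18.4%) and 4 lower (15.9%), with Bmpr2 (0.05) no longer called and Bmp4 (-1.06) lower too. Glial nuclei had Tgfbr3 higher (1.05, background 8.43%) and Bmp6 lower (-2.34, 4.66%). Over the 9 lineages Bmpr2 (-0.45) was lower in glial nuclei too, which made 1 higher (7.6%) and 2 lower (7.86%). The part of fibroblast transcripts in the epicardial and glial differences was not tested. Lymphocyte nuclei had 1 gene higher (4.94%) and 4 lower (11.3%), from 4 to 20 nuclei a library.

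Endocardial nuclei were compared directly with other endothelial nuclei, a contrast chosen after the levels had been seen. Of the 10 genes 6 were higher in endocardial nuclei (background 14.9%) and 0 lower (17.4%). Tgfb2 differed most, with a log2 difference of 2.49 (SE 0.262, edgeR adjusted p = 1.349e-11). Bmpr1a differed by 1.89 (SE 0.1499, adjusted p = 8.594e-16) and Tgfbr2 by 1.502 (SE 0.133, adjusted p = 4.051e-14). These 3 calls were made without any 1 library as well.

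The differences of Bmp4 (1.06, adjusted p = 3.540e-04), Tgfbr1 (0.39, adjusted p = 0.0206) and Bmpr2 (0.35, adjusted p = 0.0167) were each lost from the calls when some library was left out. Bmp4 was at 0.74 (adjusted p = 0.0543) without RVVO 2. Tgfbr1 was at 0.25 (adjusted p = 0.249) without sham 1 and 0.37 (adjusted p = 0.0996) without sham 2. Bmpr2 was at 0.32 (adjusted p = 0.0933) without sham 1 and 0.34 (adjusted p = 0.0794) without sham 2. Bmp6 had a difference of 0.02 (SE 0.164, adjusted p = 0.949) and Tgfb1 of 0.01 (SE 0.170, adjusted p = 0.989), so these ligands were not told apart between the compartments. CM markers made up 0.245% to 0.315% of UMIs in endocardial and 0.368% to 0.429% in other endothelial nuclei. Fibroblast markers made up 0.0661% to 0.0864% in endocardial and 0.0442% to 0.0708% in other endothelial nuclei. The part of CM and fibroblast transcripts in the differences between these nuclei was not tested.

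Lymphatic nuclei against other endothelial nuclei gave 4 genes higher (background 11.4%) and 4 lower (16.4%). Tgfb2 (2.73), Tgfb3 (2.73), Tgfbr2 (1.78) and Tgfb1 (0.74) were higher, and Bmp6 (-3.51), Bmpr1a (-0.85), Bmpr2 (-0.81) and Tgfbr1 (-0.60) were lower. The TGF-beta ligands and the type II receptor Tgfbr2 were thus higher in the lymphatic nuclei, with 38 to 53 nuclei a library. Both BMP receptors, Bmp6 and the TGF-beta type I receptor Tgfbr1 were lower. Lymphatic Tgfbr1 was at 102.0, 134.7, 77.6 and 66.1 CPM, from 65 UMIs in all. In other endothelial nuclei it was at 100.6, 123.6, 126.4 and 138.3 CPM. By CPM, lymphatic Tgfbr1 was thus below other endothelial nuclei in both RVVO libraries and in neither sham library. Tgfbr3 (0.19) and Bmp4 (-0.86) were not called. The difference of Bmpr1a rested on 30 lymphatic UMIs, and in other endothelial nuclei Bmpr1a could not be told apart from CM transcripts.

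**Figure D4:**
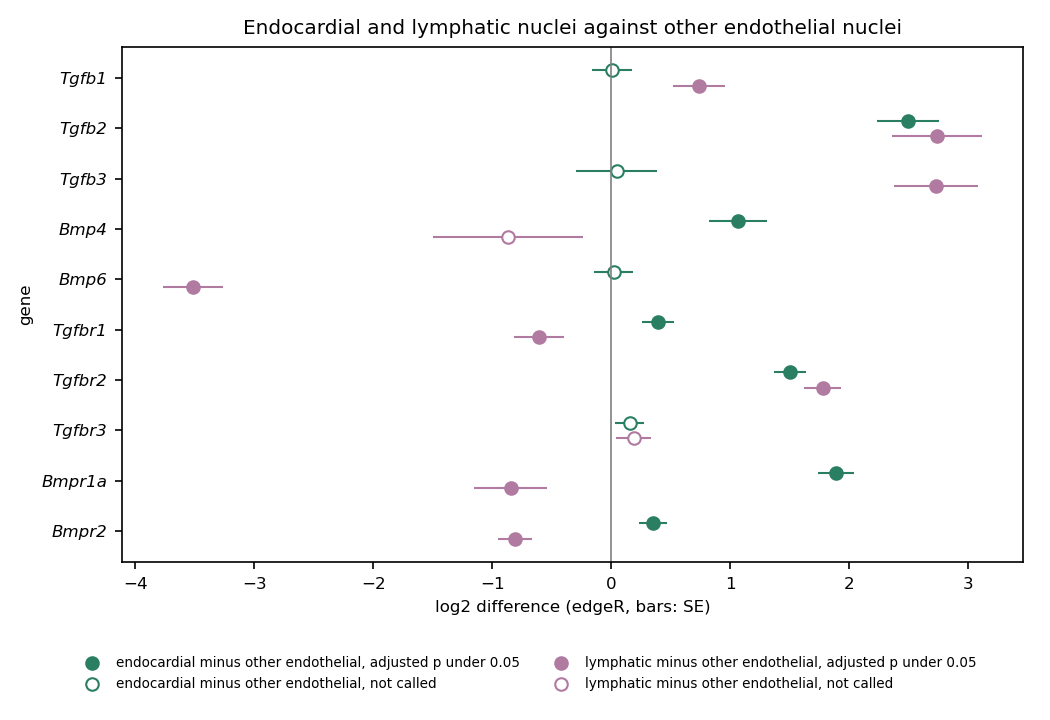
Log2 difference (x axis, bars: SE) of each gene (y axis) in endocardial (green) and lymphatic (purple) nuclei against other endothelial nuclei, over 4 libraries, with filled points for an edgeR adjusted p under 0.05. Tgfb2 and Tgfbr2 lie to the right of 0 in both contrasts, while Bmpr1a and Bmpr2 lie to the right for endocardial and to the left for lymphatic nuclei.

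The wider pathway was followed through a list of 69 further genes, of which 51 had counts enough for this test. Against other endothelial nuclei, endocardial nuclei had 17 of these higher and 13 lower, where 14.9% of all genes were higher and 17.4% lower. The counts by role that follow have the same background. Among other receptors Acvr1 (ALK2), a type I receptor for BMPs, was higher (log2 difference 1.42, at 369 against 135 CPM), as was the co-receptor Eng (0.42, at 1429 ± 116 against 1033 ± 75.8 CPM). Acvrl1 (ALK1), the type I receptor through which BMP9 acts on endothelium, was lower (-0.61), and so were Acvr2a (-1.03) and Acvr2b (-0.99). Inhba, the subunit of activin A, was higher (3.39).

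Of 8 genes for antagonists and binders, 5 were higher in endocardial nuclei and 0 lower, among them Crim1 (1.05, at 788 against 370 CPM), which binds BMPs, Fstl1 (1.65) and Twsg1 (0.50). The latency genes were divided, with Ltbp1 (1.59, at 396 against 128 CPM), Ltbp3 (1.24) and Itgav (0.77) higher and Nrros (-2.21), Itgb8 (-2.04) and Itgb5 (-1.19) lower. Among Smads and their control 3 of 12 were higher, Smad3 (1.497), Ski (0.66) and Smurf1 (0.49), and 4 lower, Smad9 (-2.77), Smad1 (-0.64), Skil (-0.64) and Smurf2 (-0.48). Of 8 target genes, Ctgf (1.997), Tgfbi (1.70) and Id2 (1.61) were higher and Id1 (-1.91, at 62.2 against 227 CPM), Id3 (-0.74, at 112 against 181 CPM) and Atoh8 (-1.22) lower. Ctgf and Tgfbi are known as TGF-beta targets and Id1, Id2, Id3 and Atoh8 as BMP targets, so the BMP targets were divided.

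The same list described the other lineages. Fibroblasts had 7 of 8 antagonists and binders higher than the mean of the other lineages and 1 lower, where 25.2% and 9.32% of all genes were, with Dcn, a proteoglycan that binds TGF-beta, at 1407 ± 376 CPM, Fstl1 at 561 CPM and Bmper at 215 CPM. They had 6 of 11 latency genes higher, and Fbn1, the microfibril protein to which latent TGF-beta is bound, was at 618 CPM. Epicardial nuclei had 8 of 8 antagonists and binders higher (background 22.3%), with Crim1 at 1687 CPM. In macrophages Nrros, which holds latent TGF-beta on their surface, was at 654 CPM.

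CMs had 4 of 8 antagonists, 5 of 9 other receptors, 5 of 12 Smads and their regulators and 5 of 8 targets lower, and 1, 1, 2 and 1 of them higher. Of 11 latency genes 4 were higher and 4 lower in CMs, and of all genes 39.7% were higher and 22.4% lower. Itgb6, the integrin chain that frees TGF-beta in epithelia, was at 110 CPM in CMs and had its highest level there. Of other integrin chains of the list, Itgb5 (1.32) was higher in CMs and Itgav (-1.965) lower. Endocardial nuclei had 11 of 12 Smads and their regulators and 6 of 8 targets higher and 0 lower (background 20.1% and 5.6%), with Smad6 at 409 and Smad7 at 414.5 CPM, both inhibitory Smads. Other endothelial nuclei had 8 of the 12 higher and 1 lower (background 29% and 11.8%), with Smad6 (3.88) and Smad7 (2.60) higher too. The value of Smad6 may be raised, since lymphocytes, which enter the mean, had a difference of -10.1 (SE 2.83). Endocardial against other endothelial nuclei, Smad6 (0.25) and Smad7 (0.03) were not called. Bmpr1b, a further BMP type I receptor, had its highest level in epicardial nuclei, at 444 CPM.

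RVVO was compared with sham in each of 9 lineages with at least 20 nuclei in every library (edgeR on the sums per library, adjusted p under 0.05 over all genes of the lineage). None of the 10 genes was called, in 76 tests (33 of ligands and 43 of receptors), and the lowest adjusted p was 0.772. DESeq2 also called 0. Over all genes 97 of 81632 tests (0.119%) were called, with Xist, Tsix and Uty called in all 9 lineages. The share called was 0.0477% in CMs, 0.0856% in fibroblasts, 0.0904% in endocardial, 0.138% in other endothelial and 0.087% in lymphatic nuclei, 0.0867% in pericytes, 0.097% in macrophages, 0.143% in epicardial and 0.855% in glial nuclei. At an unadjusted p under 0.05 there was 1 of 76 tests (1.32%), against 5.24% of all tests. The RVVO libraries were both above the higher sham library in 15 of 76 (19.7%, against 19.6% of all tests) and both below the lower one in 9 (11.8%, against 13.9%). The exact permutation test of 2 against 2 libraries cannot give a p below 0.3333.

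The fold changes ranged from -0.67 to 1.46 on the log2 scale, and 68 of 76 lay within 0.5 of 0, with a median SE of 0.236. The 1 test at unadjusted p under 0.05 was Bmp4 in endocardial nuclei, at 19.7 and 16.1 CPM in sham and 29.4 and 44.7 CPM in RVVO (log2 fold change 1.02, SE 0.363, edgeR adjusted p = 0.899). It lay between 0.70 and 1.27 when a library was left out, with no call. In simulated data with these library sizes, changes by a log2 of 1 were found for 39.4% of genes in endocardial nuclei and 38.8% in CMs. Changes by a log2 of 2 were found for 95.6% and 88.9%, so many changes by a log2 of 1 were missed. These shares are over genes of all levels. Endocardial Bmp4 rested on 14, 10, 29 and 54 UMIs, and the share for genes at that level was not tested.

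Of the sources, endothelial Bmp6 had a log2 fold change of -0.06 (SE 0.208) in endocardial and -0.15 (SE 0.204) in other endothelial nuclei. In fibroblasts Bmp6 was at 240.3 and 235 CPM in sham and 211 and 161 CPM in RVVO, without overlap (-0.38, SE 0.175, adjusted p = 1.0). Tgfb1 in other endothelial nuclei was at 0.20 (SE 0.163) and Tgfb2 in endocardial nuclei at -0.39 (adjusted p = 0.998). None of these passed the test.

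The widest fold change was that of Tgfb2 in macrophages, which had 8, 19, 9 and 114 UMIs (14.2, 22.4, 10.7 and 88.8 CPM). The high library was RVVO 2, where 5 of 427 nuclei held 63 of the 114 UMIs. The log2 fold change was 1.46 (SE 0.807, edgeR adjusted p = 0.785), and it was -0.81 without RVVO 2. It was the gene called when no filter on low counts was used (adjusted p = 0.0158).

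Of the receivers, Bmpr1a in CMs was at 569 and 629.5 CPM in sham and 623 and 597 CPM in RVVO (-0.04, SE 0.123). Bmpr2 in CMs was at 116 and 106 CPM in sham and 146 and 134 CPM in RVVO, without overlap, with a log2 fold change of 0.27 (SE 0.132, adjusted p = 0.866). Tgfbr2 in CMs had -0.27 (SE 0.139). Bmpr2 had 0.06 in endocardial and 0.12 (SE 0.131) in other endothelial nuclei, Tgfbr3 in fibroblasts 0.06 (SE 0.156) and Tgfbr1 in endocardial nuclei -0.26. The lowest value was that of Tgfbr1 in lymphatic nuclei (-0.67, adjusted p = 0.995).

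**Figure D5:**
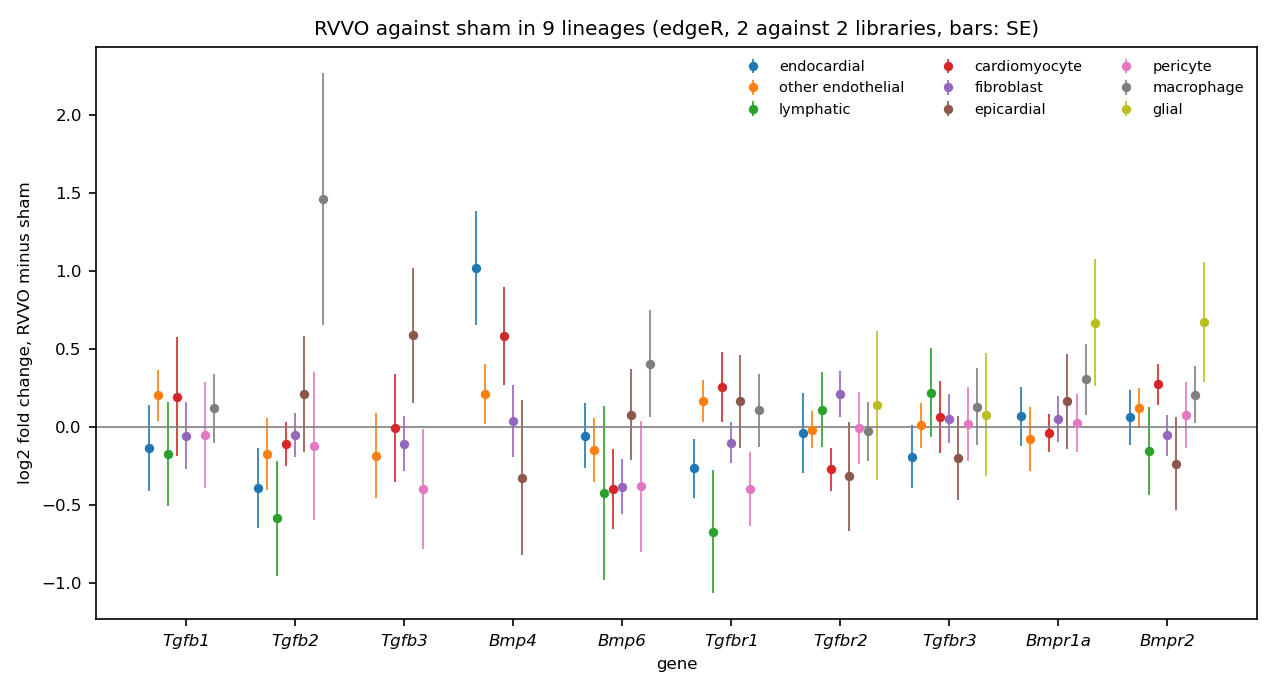
Log2 fold change of RVVO against sham (y axis, bars: SE) for each of the 10 genes (x axis) in 9 lineages (colours), 2 against 2 libraries. Most points lie within 0.5 of 0, and Tgfb2 in macrophages (1.46) is the highest.

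The difference in the RVVO effect between endocardial and other endothelial nuclei was tested as an interaction. None of the 10 genes was called, where 6 of 11498 genes (0.0522%) were. Tgfbr1 (difference -0.47, edgeR adjusted p = 0.881) and Tgfb3 (2.02, edgeR adjusted p = 0.874, on 29 endocardial UMIs) had an unadjusted p under 0.05, as had 5.17% of all genes. The RVVO effect in each lineage was also set against its mean in the others, and 0 of the 10 genes was called in any lineage by edgeR, where 0.0494% of all genes were in CMs, 0.0165% in epicardial nuclei, 0.033% in glial nuclei, 0.0247% in macrophages and 0% in the other lineages. The differences with an unadjusted p under 0.05 were those of Tgfb3 in endocardial nuclei (1.84), of Tgfb2 in macrophages (1.59) and of Bmp4 in endocardial nuclei and CMs. The values for Bmp4 are not given, since glial nuclei, which enter the mean, had 0 UMIs of it in both RVVO libraries. Against other endothelial nuclei alone, the difference for endocardial Bmp4 was 0.78 (edgeR adjusted p = 0.941), and its own fold change in CMs was 0.58. Of all genes, 4.42% in endocardial nuclei, 5.36% in CMs and 7.63% in macrophages had such a p.

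In the wider pathway 0 of 350 tests of RVVO against sham were called, and 21 had an unadjusted p under 0.05, a share near the 5.24% of all tests. Dcn made up 6 of the 21, with log2 fold changes of 0.52 to 1.47 in CMs, fibroblasts, other endothelial nuclei, pericytes, macrophages and glial nuclei (edgeR adjusted p of 0.0765 to 1.0). Fibroblast markers made up 0.0442%, 0.0485%, 0.0631% and 0.0708% of UMIs in other endothelial nuclei, higher in both RVVO libraries. Their share was also higher in both RVVO libraries in CMs, fibroblasts, pericytes, macrophages and glial nuclei. The part of fibroblast transcripts in the values of Dcn was not tested in any lineage. Smad1 was lower in endocardial (-0.48) and other endothelial nuclei (-0.36) at an unadjusted p only, as were Smad7 in CMs (-0.44) and Nrros in macrophages (-0.58).

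Finally, the genes with the most similar levels over the 44 sums of 11 lineages and 4 libraries were taken by Pearson's r of log2(CPM + 1), among 13162 genes, as a description, since sums of the same library or lineage are not independent. Bmp6 was closest to Dab2ip (0.84), Pdgfd (0.82) and Eln (0.80), and Bmpr2 to Ctnnb1 (0.91), Dock1 (0.90) and Stk3 (0.90). Tgfb2 was closest to Rhobtb3 (0.90) and then to Ltbp1 (0.89), itself a gene of the pathway that binds latent TGF-beta. Tgfbr3 was closest to Pard3b (0.93), Kdm5b (0.90) and Zfyve9 (0.89), Tgfbr1 to Cflar (0.91), Kif13b (0.90) and Slc17a5 (0.89), and Tgfbr2 to Elmo1 (0.88), Ppp3ca (0.86) and Mdfic (0.86). Bmpr1a was closest to Ttc19 (0.89), Bcl9 (0.88) and Ppp1r9a (0.88) and Tgfb3 to Zfp354c (0.91). The values for Tgfb1 (Tyk2, 0.82) and Bmp4 (Rhpn2, 0.76) were lower.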

How the data were processed

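Nuclei from mouse RVs had been sequenced with 10x 3′ v3 chemistry. The authors deposited UMI counts per gene and barcode, whole numbers with no scaling, made by Cell Ranger (5.0.0 in the file headers, 3.0.1 in the submitters' processing notes, which also name STAR, Seurat 3.0.2 and GRCm38). Neither introns nor strand in counting is described. Of 27998 gene identifiers, 27645 are in the GENCODE annotation used for positions.

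Kept barcodes had 200 genes or more and a mitochondrial share under 10%, and the highest doublet scores were removed at 0.8% per 1000 barcodes. A nucleus took a lineage when it had at least 5 marker UMIs of it (10 for CMs). For lineages other than CMs these were at least 66.7% of those of all lists other than the CM list. In this share fibroblast markers were left out for epicardial and glial nuclei, and pericyte markers for smooth muscle nuclei. CM marker UMIs were under 1.5% (at least 2% for CMs, with at most 10 other marker UMIs per 100). Endocardial and lymphatic nuclei had at least 0.5 subtype marker UMIs per endothelial marker UMI, other endothelial nuclei under 0.25. These limits were set after the marker levels of clusters had been seen, and 285 endothelial nuclei between the subtypes were left out.

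Counts were summed per library and lineage and tested with edgeR 4.0.16 in R 4.3.3 (TMM normalization, filterByExpr, quasi-likelihood test, adjustment by Benjamini and Hochberg), after the procedure had been tested on simulated data with 200 changed genes. Sums were made in Python 3.11.15. The ligands and receptors, the pathway list and the markers were chosen with earlier results of these data known. Genes named in the text were the 10 genes, pathway genes that passed the test or, by role, those with the highest level, and the 3 genes most similar in level. Fold changes and counts cover counting error and the spread of 4 libraries only. Alternatives were DESeq2 1.42.0, its size factors, no filter on low counts, a replicate block, Leiden clusters (28, of which 17 were named), doubled minimum marker UMIs, thinning to 1000 UMIs, no doublet removal, 500 genes with 5% mitochondrial UMIs, 9 lineages and leaving out each library.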

Additional observations from a re-analysis of the deposited data

How the results depend on the processing

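The RVVO comparison called 0 of the 10 genes in every alternative but the one without a filter on low counts, which called 1 (Tgfb2 in macrophages). The number of genes called (97 of 81632) was 266 with DESeq2, 758 without a filter and 159 with a replicate block, and 116 to 437 when a library was left out, the highest without sham 2. The sources link libraries of the same number by that number only (correlations of their deviations of -0.0772 to 0.19 over lineages), and the block called 0 of the 10 genes too. Both libraries numbered 2 held more epicardial nuclei (45, 232, 67 and 283). In CMs they also had higher shares of the atrial markers Myl4, Myl7 and Sln (0.00026%, 0.0060%, 0.0019% and 0.011% of UMIs). The part of such differences in the values of the 10 genes was not tested. The interaction of RVVO with endothelial compartment called 6 genes, 16 without a filter, 2 with Leiden clusters, 1 after thinning and 8 to 32 without a library, and none of the 10 genes in any of these. The cause of these changes was not tested.

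Pairs of gene and lineage called numbered 71 (58 to 73 in the alternatives, of which Leiden clusters had 8 and the 9-lineage fit 9 lineages). Lymphatic against other endothelial nuclei had 8 calls and 5 after thinning. The leading lineage was that of the full data for 6 of 10 genes with Leiden clusters, which gave no smooth muscle, and for 8 to 10 otherwise. Bmp6 then led in other endothelial nuclei and Tgfbr1 in macrophages, as each did after thinning. Tgfb1 led in lymphocytes instead of lymphatic nuclei with doubled minimum marker UMIs and without RVVO 1. Of the alternatives of named lineage contrasts, 471 kept their call and direction, 10 lost the call, 2 gained it and 14 turned, and of named RVVO fold changes 189 kept them, 1 gained a call and 13 turned. Bmpr2 in fibroblasts, called higher in the fit over all lineages (0.27), turned to -0.09 over the 9 lineages and was not called there.

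The values that turned were near 0 or rested on 1 library. Bmp6 (RVVO minus sham) in endocardial nuclei was 0.017 with Leiden clusters and -0.26 to 0.16 without a library, and in other endothelial nuclei -0.37 to 0.085. Bmpr2 in endocardial nuclei was -0.006 with Leiden clusters and -0.004 to 0.14 without a library. Tgfb2 in macrophages was -0.81 to 2.20 without a library, Bmpr1a in CMs 0.011 after thinning and -0.10 to 0.027 without a library, and Tgfbr3 in fibroblasts -0.074 to 0.18. In endocardial against other endothelial nuclei, Tgfb1 was -0.008 without a filter, -0.039 with Leiden clusters, -0.15 after thinning, -0.043 with doublets kept, -0.003 with 500 genes and -0.082 to 0.17 without a library. Tgfb3 was -0.014 with doublets kept and -0.51 to 0.28 without a library, and Bmp6 was -0.046 with Leiden clusters, -0.019 after thinning and -0.11 to 0.14 without a library. Tgfbr3 was called in this contrast with Leiden clusters (0.37) and after thinning (0.42).

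Depth limits the lymphocyte, smooth muscle, glial and lymphatic values, where a gene had few UMIs, and the libraries of the groups differ in depth and in sex.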
